A study of Mus musculus with 26 samples.

Results

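The 47 genes described here are 20 genes of S phase, which license, copy and supply the DNA, and 27 genes of mitosis, which drive the entry into division, build the spindle and part the cells. They were chosen by name and not by their levels, though earlier results of these data were known. All 47 are among the 50104 genes that the count tables of the study share. The samples were FACS sorted cells of naïve female WT mice and of ACKR2-/- mice, which lack the atypical chemokine receptor ACKR2, a scavenger of inflammatory CC chemokines. ACKR2-/- mice were bred as a homozygous colony that lacks the receptor in the whole body, and the WT mice were C57BL/6J controls that were purchased and were not littermates, so that colony and genotype cannot be told apart. The 26 samples were 8 of bone marrow monocytes and 8 of small peritoneal macrophages (SPMs), with 4 of each genotype, and 10 of MHCII negative lung macrophages, with 5 of each genotype. Each monocyte and SPM sample pooled the cells of 5 mice, while no source used here gives the mice behind each lung sample. Monocytes were sorted as CD11b+ Ly6C+ cells without F4/80, SPMs as CD11b+ MHCII+ cells with a middle level of F4/80, and lung macrophages as CD11b+ F4/80+ cells without Ly6C or MHCII, in each case after B cells were gated out.

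Cells that divide switch on these genes in 2 waves. In G1 the pocket proteins RB1, RBL1 and RBL2 hold E2F target genes silent, and cyclin dependent kinases release them, so that the MCM helicase is loaded, nucleotides are made and DNA is copied. Later the MuvB complex, with MYBL2 and FOXM1, activates mitotic genes through a short promoter element called the cell cycle genes homology region (CHR). Monocytes of the bone marrow arise from dividing progenitors, whereas most tissue macrophages are held to be largely outside the cell cycle, with low rates of renewal in place.

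The promoters of the 2 waves carried different motifs. Promoters were taken from RefSeq (GRCm38.p6) as the 250 bases before and 50 bases after the start of a gene, and 39 of the 47 genes had an entry. Aurkb, Ccna2, Ccne2, Gins2, Kif20a, Mcm4, Stmn1 and Tpx2 had none. The E2F motif was searched as TTCCCGC or TTCGCGC or TTGCCGC or TTGGCGC, on both strands, and was found in 10 of 17 S phase promoters (58.8%), in 5 of 22 mitotic promoters (22.7%) and in 10.9% of the promoters of 27025 genes. The CHR, searched as TTTGAA or TTCGAA on both strands, was found in 18 of 22 mitotic promoters (81.8%), in 4 of 17 S phase promoters (23.5%) and in 21.7% of all promoters. CCAAT, the letters bound by NF-Y, was found in 20 mitotic promoters (90.9%), in 11 S phase promoters (64.7%) and in 41.1% of all promoters. CCAAT read on the other strand can overlap the E2F letters TTGGCGC. Promoters with both a CHR and a CCAAT made up 81.8% of the mitotic set and 9.65% of all promoters. A match is a description of the letters and not evidence of binding.

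**Figure D1:**
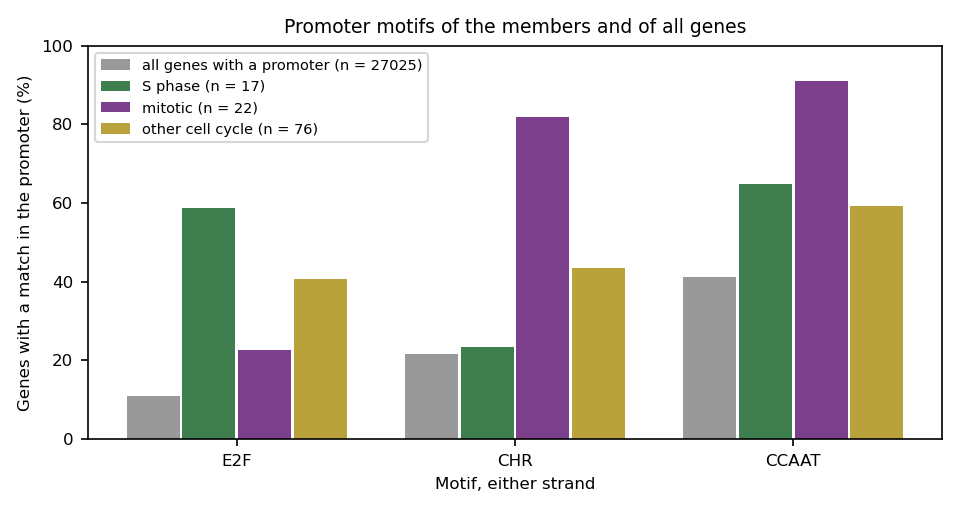
Bars show the percentage of promoters with a match to each motif on either strand, for all genes, the S phase genes, the mitotic genes and the other cell cycle genes, with the number of promoters in the legend. The E2F bar is highest for S phase genes (58.8%), and the CHR bar for mitotic genes (81.8%).

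To show the elements themselves, the 200 bases before the start are printed 5′ to 3′ along the gene's own strand for 4 mitotic genes whose products mark, untangle, drive and release dividing chromosomes, with CHR matches in capitals, and for 3 S phase genes, with E2F matches in capitals. Coordinates are GRCm38.
Mki67, chr7:135716380-135716579, minus strand: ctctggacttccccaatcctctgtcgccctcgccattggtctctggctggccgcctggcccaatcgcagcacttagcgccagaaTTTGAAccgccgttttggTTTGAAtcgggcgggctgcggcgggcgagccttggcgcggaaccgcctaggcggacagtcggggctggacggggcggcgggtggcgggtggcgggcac
Top2a, chr11:99024190-99024389, minus strand: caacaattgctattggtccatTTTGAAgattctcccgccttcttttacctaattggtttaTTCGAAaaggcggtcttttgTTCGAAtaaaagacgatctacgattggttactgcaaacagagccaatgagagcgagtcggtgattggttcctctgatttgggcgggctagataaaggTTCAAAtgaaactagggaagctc
Cdk1, chr10:69352913-69353112, minus strand: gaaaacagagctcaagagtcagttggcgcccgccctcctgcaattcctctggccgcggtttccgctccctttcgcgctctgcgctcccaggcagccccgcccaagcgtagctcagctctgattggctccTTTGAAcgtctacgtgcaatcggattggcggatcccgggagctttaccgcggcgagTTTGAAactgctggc
Cdc20, chr4:118437344-118437543, minus strand: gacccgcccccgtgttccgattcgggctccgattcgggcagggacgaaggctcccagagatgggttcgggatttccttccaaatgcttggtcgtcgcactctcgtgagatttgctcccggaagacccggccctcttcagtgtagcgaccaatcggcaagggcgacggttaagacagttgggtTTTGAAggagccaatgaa
Mcm5, chr8:75109309-75109508, plus strand: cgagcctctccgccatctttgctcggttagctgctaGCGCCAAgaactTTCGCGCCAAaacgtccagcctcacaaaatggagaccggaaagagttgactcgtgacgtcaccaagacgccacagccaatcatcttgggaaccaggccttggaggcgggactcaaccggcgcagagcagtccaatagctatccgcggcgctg
Rrm1, chr7:102441495-102441694, plus strand: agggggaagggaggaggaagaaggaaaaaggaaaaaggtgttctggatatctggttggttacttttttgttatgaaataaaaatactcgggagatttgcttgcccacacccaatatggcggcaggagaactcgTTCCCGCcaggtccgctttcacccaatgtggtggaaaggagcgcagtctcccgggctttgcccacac
E2f8, chr7:48881597-48881796, minus strand: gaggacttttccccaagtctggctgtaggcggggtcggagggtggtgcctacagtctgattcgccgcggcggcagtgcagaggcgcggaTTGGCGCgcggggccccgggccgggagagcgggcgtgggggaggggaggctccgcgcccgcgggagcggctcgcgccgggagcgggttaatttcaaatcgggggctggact

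In Cdk1 and Cdc20 a CHR began 15 and 18 bases before the start, and Top2a held 4 matches, of which the nearest began 23 bases before it. In Mcm5, 3 E2F matches began 164, 152 and 149 bases before the start, and those at 152 and 149 overlapped.

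Genes were counted to a total between 12781144 and 35400034 per sample. Levels are given as CPM, counts scaled to the library total, on a TMM scale common to all samples, where 3 counts, the limit that a count of 0 allows, were worth between 0.0809 and 0.466 CPM. Intervals of this kind cover counting error only. Ackr2 was counted 0 to 2 times per monocyte library of either genotype, so it does not check those labels. It was counted 5 to 9 times in WT SPMs and 0 times in each ACKR2-/- SPM library, and 7 to 50 times in ACKR2-/- lung libraries. WT lung libraries held 150 to 469 counts, except the library labelled WT lung 5, which held 0. All WT lung values below include it, and its effect is given beside the genotype comparison. WT lung library 3 also stood apart from the other WT lung libraries. It held 15830 CPM of the MHC class II gene H2-Ab1, against which the sort had selected, where the others held 454 to 1408, and 1469 CPM of B cell genes, where the others held 205 to 560. Its sums of genes listed for lung macrophages (8569 CPM, others 2908 to 4281 CPM) and for large peritoneal macrophages (449 CPM, others 147 to 270 CPM) were also the highest. WT SPM library 1 was the lowest of its group in both sets of cell cycle genes. Results that rest on WT lung library 3 or WT SPM library 1 are given with and without it.

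The labelled monocytes had the monocyte genes Ly6c2 (4583 CPM in WT) and Ccr2 (552 CPM). They also had high levels of genes of the granulocyte and monocyte progenitor, among them Elane (7830 CPM), Mpo (5708 CPM) and Prtn3 (1788 CPM), and of neutrophil granule genes, although the gate left out Ly6G+ cells and Ly6g itself was at 9.28 CPM. Genes of earlier progenitors were low, with Kit at 8.99 CPM, Cd34 at 7.04 CPM and Hoxa9 at 0.415 CPM. In WT SPMs H2-Ab1 was at 61290 CPM and Cd226 at 148 CPM, while Timd4 (216 CPM) and Icam2 (423 CPM), known from large peritoneal macrophages, were present. T cell genes summed to 422 to 909 CPM and B cell genes to 276 to 976 CPM in the same libraries. WT lung libraries had Csf1r (1109 CPM) and Adgre1, which encodes F4/80 (341 CPM), and also the epithelial genes Sftpc (3811 CPM) and Scgb1a1 (2275 CPM). Whether other cells in the sorts contributed to the levels of cell cycle genes was not tested. In bulk samples, fewer cells of a type cannot be told apart from less RNA per cell.

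Cell cycle RNA was high in monocytes and low in both kinds of macrophage. The 27 mitotic genes summed to 5975 ± 653 CPM (SD, n = 4) in WT monocytes, to 440 ± 160 CPM (SD, n = 4) in WT SPMs and to 282 ± 162 CPM (SD, n = 5) in WT lung macrophages. The 20 S phase genes summed to 2363 ± 394 CPM, 424 ± 140 CPM and 373 ± 123 CPM in the same groups. No macrophage library of either genotype reached the lowest monocyte library in either set. Mitotic RNA exceeded S phase RNA in each of the 8 monocyte libraries, by 1.80 to 2.94 times. In SPMs the ratio of mitotic to S phase CPM ran from 0.946 to 1.56, and in lung libraries from 0.337 to 0.952, so that S phase RNA was the larger sum in all 10 lung libraries. These sums rest in part on single genes. Pcna made up 112 of the 373 CPM of S phase genes in WT lung macrophages and 147 of the 424 CPM in WT SPMs. Stmn1 made up 102 of the 282 CPM and 170 of the 440 CPM of mitotic genes.

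**Figure D2:**
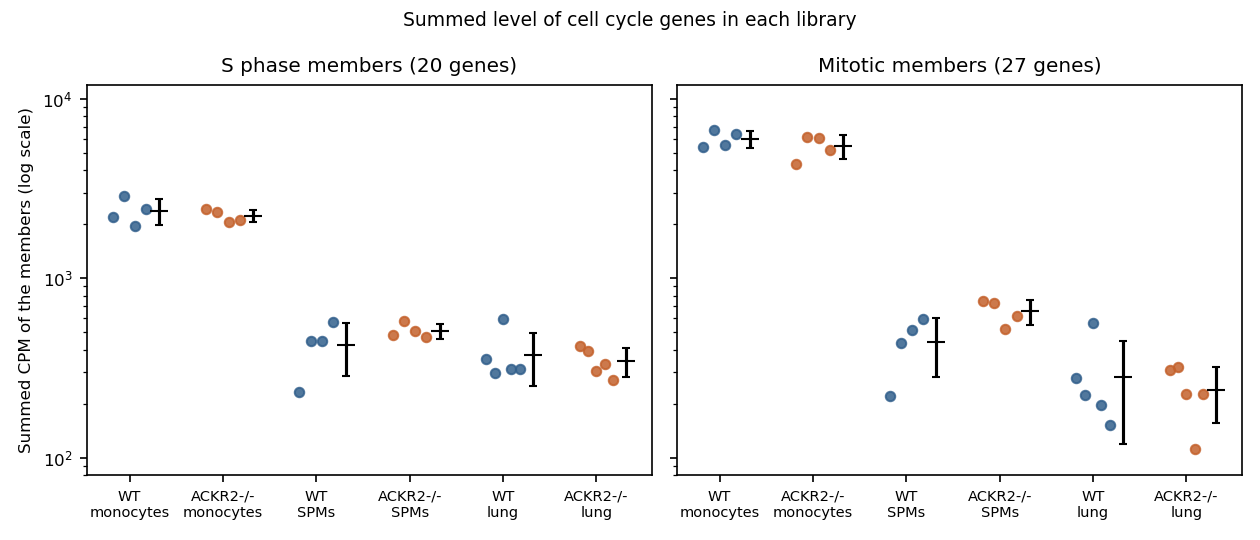
Each point is a library, placed by the summed CPM (log scale) of the S phase genes or of the mitotic genes, with WT in blue and ACKR2-/- in orange and the mean with its SD beside them. Monocyte libraries lie above all macrophage libraries, and WT lung library 3 (589 CPM for S phase genes, 560 CPM for mitotic genes) lies above the rest of its group.

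The first comparison asked how WT monocytes differ from WT SPMs, the peritoneal macrophages that such monocytes are known to feed. Of the 47 genes, 45 were called higher in monocytes, where called means an adjusted p under 0.05 and a log2 fold change over 0.5 in edgeR's quasi-likelihood test of all 26 samples. Over all 17792 genes tested, 20.1% were called higher. The groups did not overlap for 45 of the 47 genes, against 21.6% of all genes in that direction. All 27 mitotic genes were called, with a median log2 fold change of 4.62, and 18 of 20 S phase genes, with a median of 3.03, where the median of all genes was 0. The samples of each cell type came in a count table of their own, so that cell type, sort, sequencing run and counting cannot be told apart.

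Among the markers of proliferation, Mki67, which coats mitotic chromosomes, was at 137, 142, 144 and 168 CPM in WT monocytes and at 8.02, 6.30, 3.73 and 6.59 CPM in WT SPMs. Its log2 fold change was 4.56 ± 0.33 (SE; edgeR adjusted p = 3.724e-11), a level 23.6 times higher. Top2a, the topoisomerase that untangles sister DNA, was 20.8 times higher. These differences were many times the spread between libraries.

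Among the 7 mitotic cyclins and kinases the log2 fold changes ran from 3.12 (Aurkb) to 5.78 (Plk1). Plk1 (mm10 chr7:122159439-122169873, plus strand), a kinase of mitotic entry and spindle assembly, was at 154, 194, 146 and 149.9 CPM in WT monocytes and between 1.39 and 3.98 CPM in WT SPMs (log2 fold change 5.78 ± 0.70, edgeR adjusted p = 2.675e-07). Ccnb1, the cyclin that activates CDK1 at mitotic entry, was at 249, 283, 237 and 271 CPM against 1.47, 6.02, 8.24 and 11.5 CPM, which is 38.3 times higher. Both genes were at or near a few CPM in SPMs, and WT SPM library 1 was the lowest in each. Cdk1 itself, at 264 to 376 CPM in monocytes, stayed at 22.7 to 28.6 CPM in 3 of the WT SPM libraries and at 6.48 CPM in library 1. Over the 7 cyclins and kinases the median log2 fold change was 4.95, over the 4 genes of the checkpoint and its ubiquitin ligase 5.32, over the 5 genes of cytokinesis 4.80 and over the 4 genes of the centromere and passenger complex 4.06.

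Birc5 encodes survivin, a subunit of the passenger complex that corrects the attachment of chromosomes. It was 12.0 times higher in monocytes (347 to 488 CPM) than in SPMs, where library 1 held 9.56 CPM and library 2 held 29.7 CPM. Stmn1, a protein that takes microtubules apart, had the highest level per length of all mitotic genes in each cell type, with 701 ± 128 CPM per kb in WT monocytes, 88.5 ± 41.3 in WT SPMs and 53.2 ± 30.0 in WT lung macrophages. Its log2 fold change between monocytes and SPMs was 2.99, below the median of the mitotic genes. At the other end stood Kif11, the motor that pushes spindle poles apart, with 1.59 ± 0.84 CPM per kb in WT monocytes, the lowest mitotic level there, and a log2 fold change of 2.25 ± 0.78 (edgeR adjusted p = 0.02201).

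Replication genes differed less, and unequally. Rrm2, the regulated subunit of the enzyme that makes deoxynucleotides, was at 349, 465, 294 and 401 CPM in WT monocytes and at 4.39, 18.1, 13.1 and 26.4 CPM in WT SPMs, 24.3 times higher. It had the highest S phase level per length in WT monocytes, 136 ± 26.4 CPM per kb. The MCM subunits, which form the replicative helicase, were called without exception, with Mcm2 9.69 times and Mcm5 8.27 times higher. Tyms and Tk1, which make thymidylate, were at 129 to 185 and 110 to 176 CPM in monocytes, and both were called (log2 fold changes 2.52 ± 0.38 and 3.02 ± 0.38, edgeR adjusted p = 6.708e-06 and 4.453e-07). Cdc6, which loads the helicase onto origins, was also called, with a log2 fold change of 3.26 ± 0.41 (edgeR adjusted p = 3.833e-07).

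Pcna (mm10 chr2:132249162-132253314, minus strand), the sliding clamp of the polymerases that also serves DNA repair, differed least among the genes called, at 224, 325, 224 and 292 CPM in monocytes against 60.6, 156, 181 and 191 CPM in SPMs (log2 fold change 0.86 ± 0.23, edgeR adjusted p = 0.003231). It had the highest S phase level per length in both kinds of WT macrophage, 61.3 ± 24.8 CPM per kb in SPMs and 46.7 ± 5.08 in lung macrophages. The 2 genes not called were E2f1, a transcription factor at the head of the S phase wave, and Gins2, a subunit of the active helicase whose gene overlaps Gse1. E2f1 was at 35.5, 43.7, 35.8 and 32.8 CPM in WT monocytes and at 17.0, 33.5, 29.8 and 35.2 CPM in WT SPMs (log2 fold change 0.35 ± 0.28, edgeR adjusted p = 0.3369). Gins2 had a log2 fold change of 0.49 ± 0.32 (edgeR adjusted p = 0.2303), and both genes overlapped between the groups. E2f8, a repressor of E2F targets that is itself made in S phase, differed by contrast, at 19.9 to 25.6 CPM in WT monocytes and 0.466 to 1.47 CPM in WT SPMs.

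ACKR2-/- mice gave the same comparison with fold changes from other samples, but in the same fit of all 26 samples. The calls therefore share its filter, scaling and estimates of spread with those of WT mice and are not independent of them. Between ACKR2-/- monocytes and ACKR2-/- SPMs 44 genes were called higher in monocytes, against 19.5% of all genes. They were 18 S phase genes, with a median log2 fold change over the set of 2.41, and 26 mitotic genes, with a median of 3.91. Mki67 was at 168, 193, 160.0 and 150.1 CPM in ACKR2-/- monocytes and at 6.82, 7.21, 4.17 and 5.38 CPM in ACKR2-/- SPMs. The genes not called were E2f1 (log2 fold change 0.11 ± 0.28), Gins2 (0.77 ± 0.31, edgeR adjusted p = 0.05251) and Kif11 (0.86 ± 0.74).

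**Figure D3:**
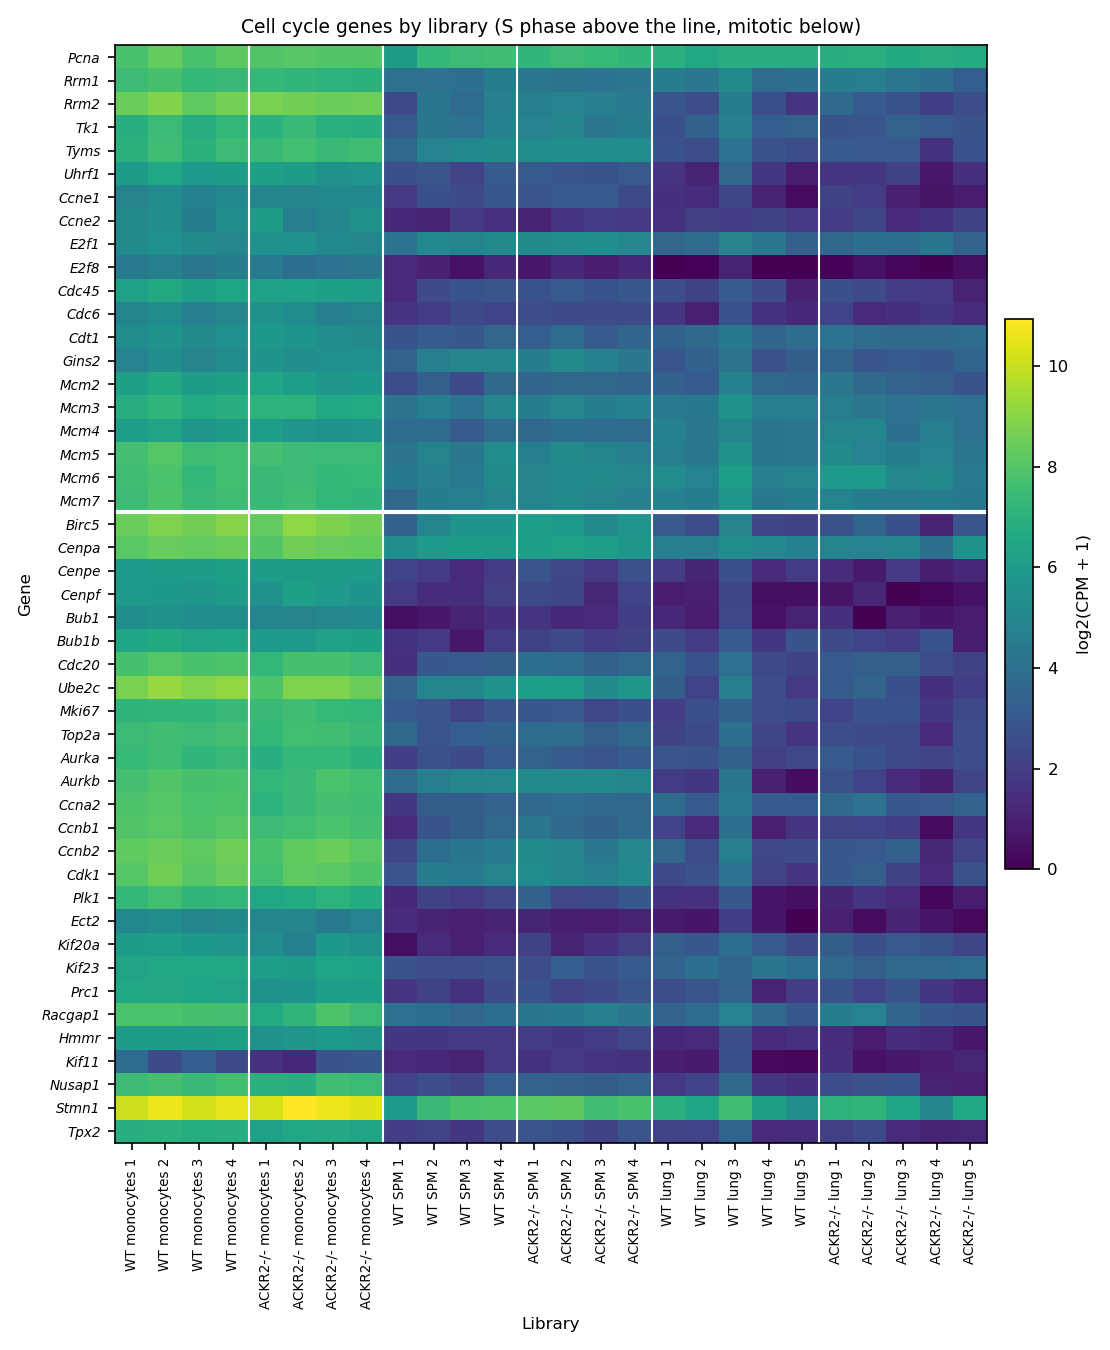
Rows are the 47 genes, S phase above the line and mitotic below, columns are the 26 libraries, and colour is log2(CPM + 1). Columns of monocytes are bright for nearly all genes, Pcna, E2f1 and Stmn1 keep colour in macrophages, and WT lung library 3 is brighter than the other WT lung libraries.

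Against WT lung macrophages all 47 genes were called higher in WT monocytes, where 24.4% of all genes were, and 46 did not overlap between the groups, where 24.9% of all genes did not. The median of all genes lay at -0.34 on this contrast, and the members lay at 3.07 for S phase and 4.82 for mitosis. E2f8 and Plk1 differed most. Plk1 was at 2.06, 1.97, 6.74, 0.516 and 0.364 CPM in WT lung libraries, and its level in monocytes was 69.3 times higher. Cdk1 was 47.5 times, Rrm2 44.2 times and Mki67 26.6 times higher in monocytes. E2f8 was at 0 in 3 of the 5 WT lung libraries, at 0.0625 CPM in library 2 and at 1.08 CPM in library 3. The smallest difference was that of E2f1 (log2 fold change 1.19 ± 0.26, edgeR adjusted p = 0.0003469), next to Pcna (1.25 ± 0.21, edgeR adjusted p = 1.719e-05). In ACKR2-/- samples 47 of 47 were called higher in monocytes (24.3% of all genes), with medians of 2.86 and 5.27.

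**Figure D4:**
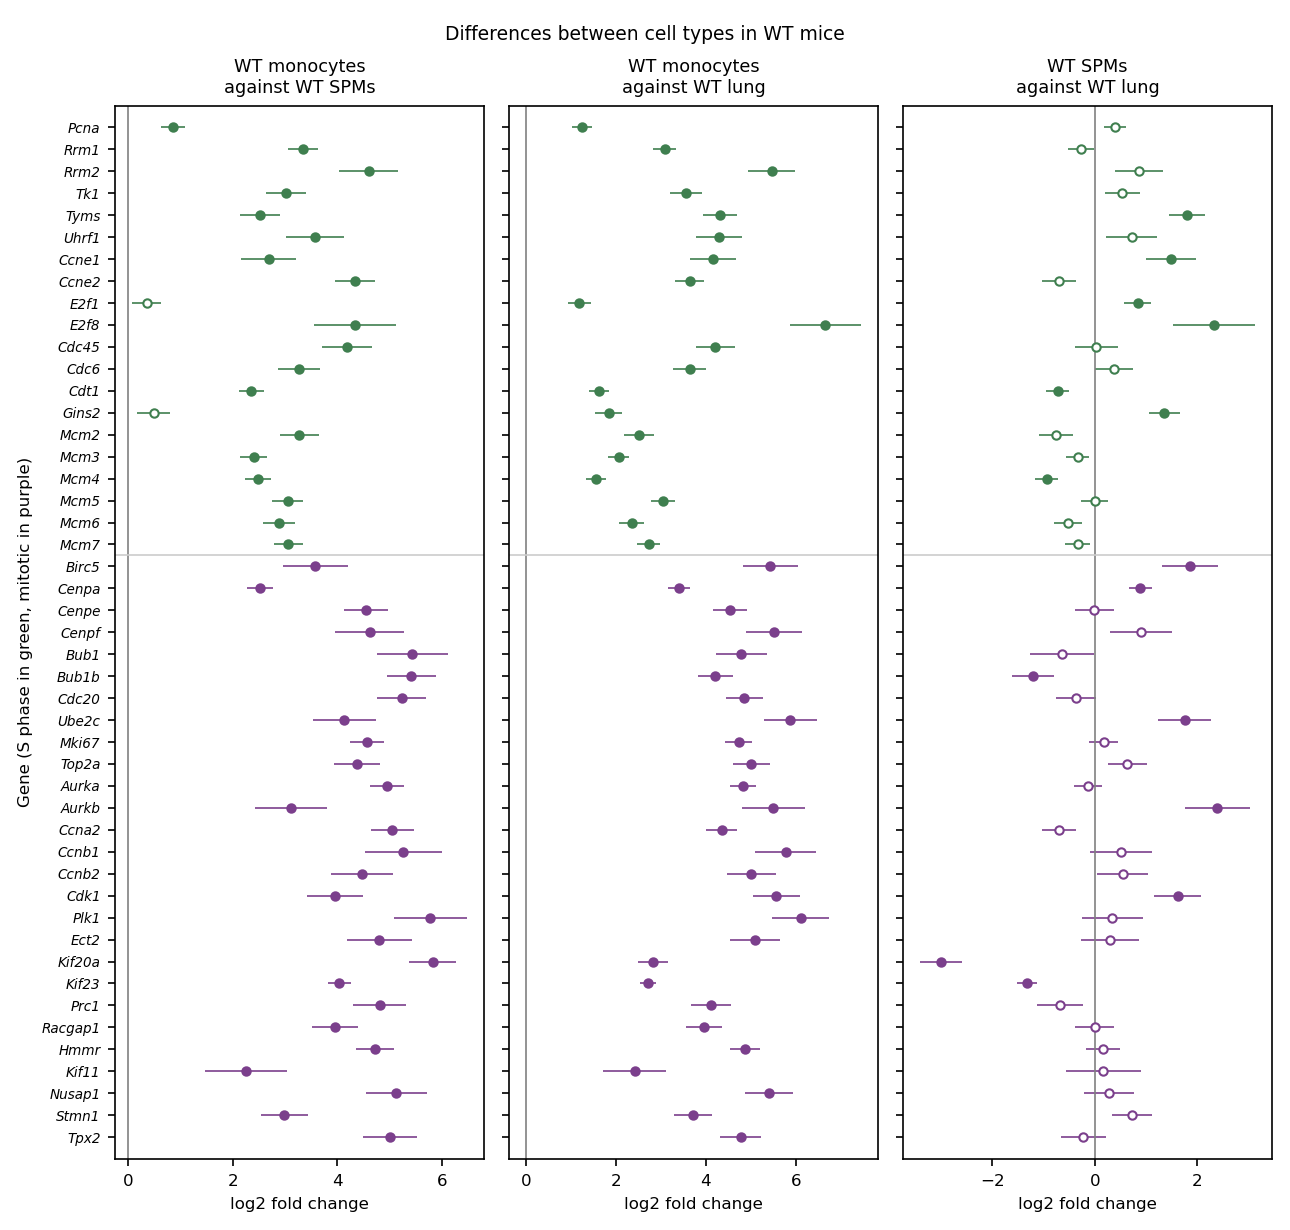
Points show the log2 fold change of each gene with its SE for WT monocytes against WT SPMs, WT monocytes against WT lung macrophages and WT SPMs against WT lung macrophages, S phase in green and mitotic in purple, filled where called. Monocytes lie to the right of 0 throughout, with E2f1 and Gins2 open in the first panel, and the third panel spreads to both sides of 0 from Kif20a at -3.00 to Aurkb at 2.39.

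Between WT SPMs and WT lung macrophages 10 genes were called higher in SPMs, against 23.2% of all genes, and 5 were called higher in lung macrophages, against 39.1% of all genes. In neither direction did the share of the 47 genes exceed that of all genes in this fit, which includes WT lung library 3. The median log2 fold change was 0.21 for S phase genes and 0.17 for mitotic genes, on a contrast where the median of all genes was -0.41.

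The 10 genes higher in WT SPMs were Aurkb, Birc5, Ccne1, Cdk1, Cenpa, E2f1, E2f8, Gins2, Tyms and Ube2c. Tyms was at 11.7, 27.8, 33.7 and 35.6 CPM in WT SPMs and at 5.76, 5.22, 17.1, 6.02 and 5.21 CPM in WT lung macrophages (log2 fold change 1.79 ± 0.35, edgeR adjusted p = 9.275e-05). Cdk1 was 3.07 times and Birc5 3.61 times higher in SPMs. In each of these 3 genes WT lung library 3 lay above the lowest SPM library, so that the groups overlapped. The 5 genes higher in lung macrophages were Bub1b, Cdt1, Kif20a, Kif23 and Mcm4. Kif20a and Kif23 encode motors of cytokinesis, and in both the groups did not overlap. Kif20a was at 0.308, 1.48, 0.933 and 1.51 CPM in WT SPMs and at 8.84, 7.12, 14.6, 7.65 and 4.61 CPM in WT lung macrophages (log2 fold change -3.00 ± 0.41, edgeR adjusted p = 6.71e-07). Its gene overlaps Cdc23, and strand was not kept in these libraries, so that reads in the shared stretch cannot be told apart. Kif23 (mm10 chr9:61915905-61946774), which overlaps no other gene, was at 4.91 to 6.17 CPM in WT SPMs and at 9.69 to 17.9 CPM in WT lung macrophages (log2 fold change -1.32 ± 0.19, edgeR adjusted p = 2.171e-06).

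The same comparison in ACKR2-/- mice called 27 genes higher in SPMs (24.7% of all genes) and 3 higher in lung macrophages (38.9% of all genes). The 10 genes called higher in WT SPMs were all among these 27, and the 3 higher in lung macrophages, Kif20a, Kif23 and Mcm4, were among the 5 of the WT mice. Medians were 0.73 for S phase genes and 1.27 for mitotic genes. Ccnb1, for example, was at 18.5, 12.8, 9.48 and 12.8 CPM in ACKR2-/- SPMs and at 3.69, 3.58, 3.02, 0.268 and 2.38 CPM in ACKR2-/- lung macrophages (log2 fold change 2.36 ± 0.60, edgeR adjusted p = 0.001466). Without WT lung library 3 the WT comparison called 29 genes, 24 of them higher in SPMs (24.0% of all genes in that fit) and 5 higher in lung macrophages (39.2%), with medians of 0.38 for S phase and 1.01 for mitotic genes, so the number of calls in WT mice rested on that library.

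The genotype comparison asked, in each cell type, whether these genes differ without ACKR2. In monocytes no gene of the 47 was called by edgeR, where 1.27% of 13246 genes were, but mitotic genes leaned towards lower levels in ACKR2-/- monocytes. Of the 27 mitotic genes 22 had a log2 fold change below 0, against 49.6% of all genes, with a median of -0.28, and their summed level was 5422 ± 829 CPM (SD, n = 4) in ACKR2-/- monocytes beside 5975 ± 653 CPM in WT. An unadjusted p under 0.05 in the lower direction was reached by 10 mitotic genes, against 8.17% of all genes, and 8 did not overlap between the genotypes in that direction, against 6.26% of all genes. S phase genes were spread around 0, with 12 of 20 below it, a median of -0.036, and an unadjusted p under 0.05 for 1 gene lower and 1 gene higher, where 8.83% of all genes were higher.

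Prc1, which bundles the microtubules of the central spindle, had the smallest p, at 90.1, 95.7, 84.8 and 83.5 CPM in WT monocytes and at 47.9, 49.9, 68.6 and 67.6 CPM in ACKR2-/- monocytes (log2 fold change -0.58 ± 0.14, edgeR adjusted p = 0.07586). Its gene (mm10 chr7:80294450-80316259, plus strand) overlaps Rccd1, so that reads in the shared stretch cannot be told apart. Plk1 was at 154, 194, 146 and 149.9 CPM in WT and at 94.3, 102, 132 and 104 CPM in ACKR2-/- monocytes (log2 fold change -0.55 ± 0.14, edgeR adjusted p = 0.08539). Bub1, a kinase of the spindle checkpoint, was at 42.9, 47.9, 40.6 and 39.1 CPM and at 29.5, 28.3, 32.7 and 33.1 CPM (log2 fold change -0.44 ± 0.11, edgeR adjusted p = 0.08905). The genotypes did not overlap in any of these 3 genes, and none passed the adjusted threshold. DESeq2 called 2 of them, Plk1 and Prc1, and edgeR called the same 2 without ACKR2-/- monocyte library 3. The shares of all genes called in those fits are not given here, so these calls are not set against a background.

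The lean was not even across mitotic roles. An unadjusted p under 0.05 was reached by 3 of the 4 checkpoint genes, 3 of the 7 cyclins and kinases, 2 of the 5 cytokinesis genes and 2 of the 5 spindle genes. Of the 4 genes of the centromere and passenger complex none did, with log2 fold changes from -0.018 to 0.040. Mki67 was at 137, 142, 144 and 168 CPM in WT and 168, 193, 160.0 and 150.1 CPM in ACKR2-/- monocytes (log2 fold change 0.21 ± 0.12), and Top2a had a log2 fold change of -0.054 ± 0.12. Both genes overlapped between the genotypes.

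Ccna2 and Ccnb1 had log2 fold changes of -0.45 ± 0.14 and -0.34 ± 0.12, and no WT library lay below an ACKR2-/- library in either. Among S phase genes Gins2 was at 27.6, 42.5, 29.1 and 37.7 CPM in WT and at 49.0, 40.7, 43.7 and 45.2 CPM in ACKR2-/- monocytes (log2 fold change 0.41 ± 0.15, edgeR adjusted p = 0.1918), with WT library 2 inside the ACKR2-/- range. Rrm1, the large subunit of the deoxynucleotide enzyme, was at 179, 213, 156 and 171 CPM in WT and at 155, 144, 135 and 131 CPM in ACKR2-/- monocytes (log2 fold change -0.33 ± 0.13, edgeR adjusted p = 0.2267). Mcm2, Mcm5, Pcna, Rrm2, Tyms, Tk1 and Cdc6 all overlapped between the genotypes, with log2 fold changes from -0.21 (Mcm5) to 0.22 (Tyms).

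T cell genes differed with genotype in these samples. The 10 of them summed to 3.25 to 4.36 CPM in WT and 56.4 to 96.6 CPM in ACKR2-/- monocytes. The sums of the 7 genes listed for alveolar macrophages were also apart, at 5901 to 7272 CPM in WT and 3789 to 5244 CPM in ACKR2-/- monocytes. These sums were nearly all Chil3, at 4005 CPM per kb in WT and 2652 in ACKR2-/- monocytes (log2 fold change -0.58 ± 0.18, edgeR adjusted p = 0.1494). Siglecf, at 4.23 and 3.37 CPM per kb, had a log2 fold change of -0.29 ± 0.36. Marco, Car4, Ear1, Fabp1 and Krt79 were too low to test. Sums of the remaining lists overlapped between the genotypes. The 15 progenitor genes summed to 12880 to 25400 CPM in WT and to 8171 to 21250 CPM in ACKR2-/- monocytes, the 8 neutrophil genes to 11740 to 33050 and 4128 to 18250 CPM, and the 10 erythroid genes to 206 to 272 and 54.1 to 944 CPM. Without the 2 ACKR2-/- libraries lowest in progenitor genes, 9 mitotic genes were called lower (Bub1, Bub1b, Ccna2, Kif11, Kif20a, Nusap1, Plk1, Prc1 and Racgap1), where 4.18% of all genes were called lower in the same fit. Without the 2 highest, 0 were called, with 8 mitotic genes at an unadjusted p under 0.05 in the lower direction, where 11.9% of all genes were. The mitotic median was -0.37 in the first case and -0.20 in the second, with 21 and 22 of the 27 genes below 0. Both choices of libraries were made after the data were seen.

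In SPMs most of the genes lay on the other side of 0, and none was called by edgeR or DESeq2. Of all 12997 genes 0.0462% were called by edgeR. Of the 27 mitotic genes 25 had a log2 fold change above 0 and of the 20 S phase genes 18 had, against 44.3% of all genes. The medians were 0.59 and 0.25, where the median of all genes was -0.05. The mitotic genes summed to 655 ± 105 CPM (SD, n = 4) in ACKR2-/- SPMs, beside 440 ± 160 CPM in WT. An unadjusted p under 0.05 in the higher direction was reached by 6 mitotic genes and 0 S phase genes, against 2.93% of all genes, and with DESeq2 by 8 mitotic genes. The 2.93% belongs to the edgeR fit, and the share with DESeq2 is not given here. Values did not overlap for 5 mitotic and 2 S phase genes, all higher in ACKR2-/- SPMs, against 2.32% of all genes.

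Plk1 was at 1.39, 3.52, 2.80 and 3.98 CPM in WT SPMs and at 9.37, 4.01, 4.27 and 6.97 CPM in ACKR2-/- SPMs (log2 fold change 1.03 ± 0.39, edgeR adjusted p = 0.7881). The gap between the genotypes was narrow, from 3.98 to 4.01 CPM. Cdc20, which activates the ligase that ends mitosis and whose gene overlaps Elovl1, was at 1.85, 7.04, 7.62 and 8.45 CPM in WT and at 15.5, 13.0, 9.48 and 11.7 CPM in ACKR2-/- SPMs (log2 fold change 0.96 ± 0.38, edgeR adjusted p = 0.7881). Nusap1, which binds spindle microtubules, was at 3.62, 5.19, 3.89 and 8.58 CPM and at 9.72, 8.90, 8.44 and 9.76 CPM (log2 fold change 0.73 ± 0.28), with WT library 4 inside the ACKR2-/- range. Of the S phase genes Cdc6 was at 2.24, 2.87, 4.35 and 3.64 CPM in WT and at 5.03, 4.83, 4.65 and 4.68 CPM in ACKR2-/- SPMs (log2 fold change 0.51 ± 0.27). Rrm2 was at 4.39, 18.1, 13.1 and 26.4 CPM and at 25.1, 28.2, 24.8 and 22.7 CPM (log2 fold change 0.67 ± 0.39), with a WT library inside the ACKR2-/- range. Mki67 had a log2 fold change of -0.15 ± 0.31.

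WT SPM library 1, with 220 CPM of mitotic and 233 CPM of S phase genes, was part of this difference. Without it the medians were 0.50 for mitotic and 0.17 for S phase genes, 10 mitotic genes had an unadjusted p under 0.05, and 0 genes were called. The share of all genes in that fit is not given here, so the 10 are not set against a background. Plk1 was then at a log2 fold change of 0.80 ± 0.33 and Cdc20 at 0.66 ± 0.20. Library 1 also held the lowest sum of large peritoneal macrophage genes (592 CPM, where the group's median was 2004 CPM and ACKR2-/- SPMs held 1985 to 3834 CPM) and the fewest B cell genes (276 CPM against 717 to 976 CPM in the other WT libraries).

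Some markers of other cells also moved in the same direction as the cell cycle genes, and others did not. The 15 progenitor genes summed to 62.5 to 141 CPM in WT and to 127 to 368 CPM in ACKR2-/- SPMs. Prtn3 had the highest level per length among them, 39.1 CPM per kb in WT and 119 in ACKR2-/- SPMs (log2 fold change 1.56 ± 0.42, edgeR adjusted p = 0.7881). The other progenitor genes tested lay at 0.53 (Kit), 0.06 (Cd34), -0.002 (Gata2), -0.03 (Ctsg), -0.07 (Flt3), -0.71 (Meis1), -0.96 (Cebpe) and -0.98 (Myb). The 10 erythroid genes had medians of 41.1 and 208 CPM (ranges 5.60 to 236 and 110 to 1419 CPM). The monocyte gene Ly6c2 was at 26.98 to 101.5 CPM in WT SPMs and at 684, 59.8, 43.9 and 1307 CPM in ACKR2-/- SPMs, in library order. ACKR2-/- SPM library 1, the highest in mitotic genes (750.5 CPM), was also the highest in progenitor (368 CPM) and erythroid genes (1419 CPM). Without it the medians were 0.48 for mitotic and 0.30 for S phase genes, and 0 of the 47 genes had an unadjusted p under 0.05 (1.34% of all genes in the higher direction). Without both ACKR2-/- libraries highest in progenitor genes, libraries 1 and 4, a choice made after the data were seen, the medians were 0.44 and 0.37, again with 0 genes at an unadjusted p under 0.05. The part of these cells in the levels was not tested.

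In lung macrophages none of the 46 genes tested was called by edgeR or DESeq2, and 0% of 16824 genes were called by edgeR. E2f8 was too low to test. Of the 27 mitotic genes 26 had a log2 fold change below 0 and of 19 S phase genes 16 had, against 55.2% of all genes, with medians of -0.54 and -0.23. An unadjusted p under 0.05 was reached by Mcm3 alone, against 1.72% of all genes, and no member's genotypes were apart in the lower direction, against 0.236% of all genes. Mcm3, a helicase subunit, was at 22.3, 20.4, 47.8, 25.3 and 24.8 CPM in WT and at 25.2, 19.4, 15.9, 18.3 and 16.1 CPM in ACKR2-/- lung macrophages (log2 fold change -0.60 ± 0.25, edgeR adjusted p = 0.9999). Hmmr, a spindle protein, was at 1.36, 1.47, 5.12, 1.43 and 1.94 CPM in WT and at 1.59, 0.859, 1.60, 1.31 and 0.651 CPM in ACKR2-/- libraries (log2 fold change -0.94 ± 0.49). In both genes the third WT library was the highest of all 10.

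These signs rested on WT lung library 3. Without it the median was 0.14 for mitotic genes, with 10 of 27 below 0, and 0.19 for S phase genes, with 3 of 19 below 0. Plk1 moved from -0.97 ± 0.85 to 0.02 ± 0.78, Cenpf, a kinetochore protein, from -1.45 ± 0.92 to -0.32 ± 0.85, Cenpe, a motor of the kinetochore, from -0.92 ± 0.52 to -0.49 ± 0.49, and Tk1 from -0.73 ± 0.40 to -0.16 ± 0.27. Mcm3 stayed below 0, at -0.27 ± 0.17. Without the library labelled WT lung 5 the medians were -0.75 for mitotic and -0.35 for S phase genes, with 0 genes called.

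**Figure D5:**
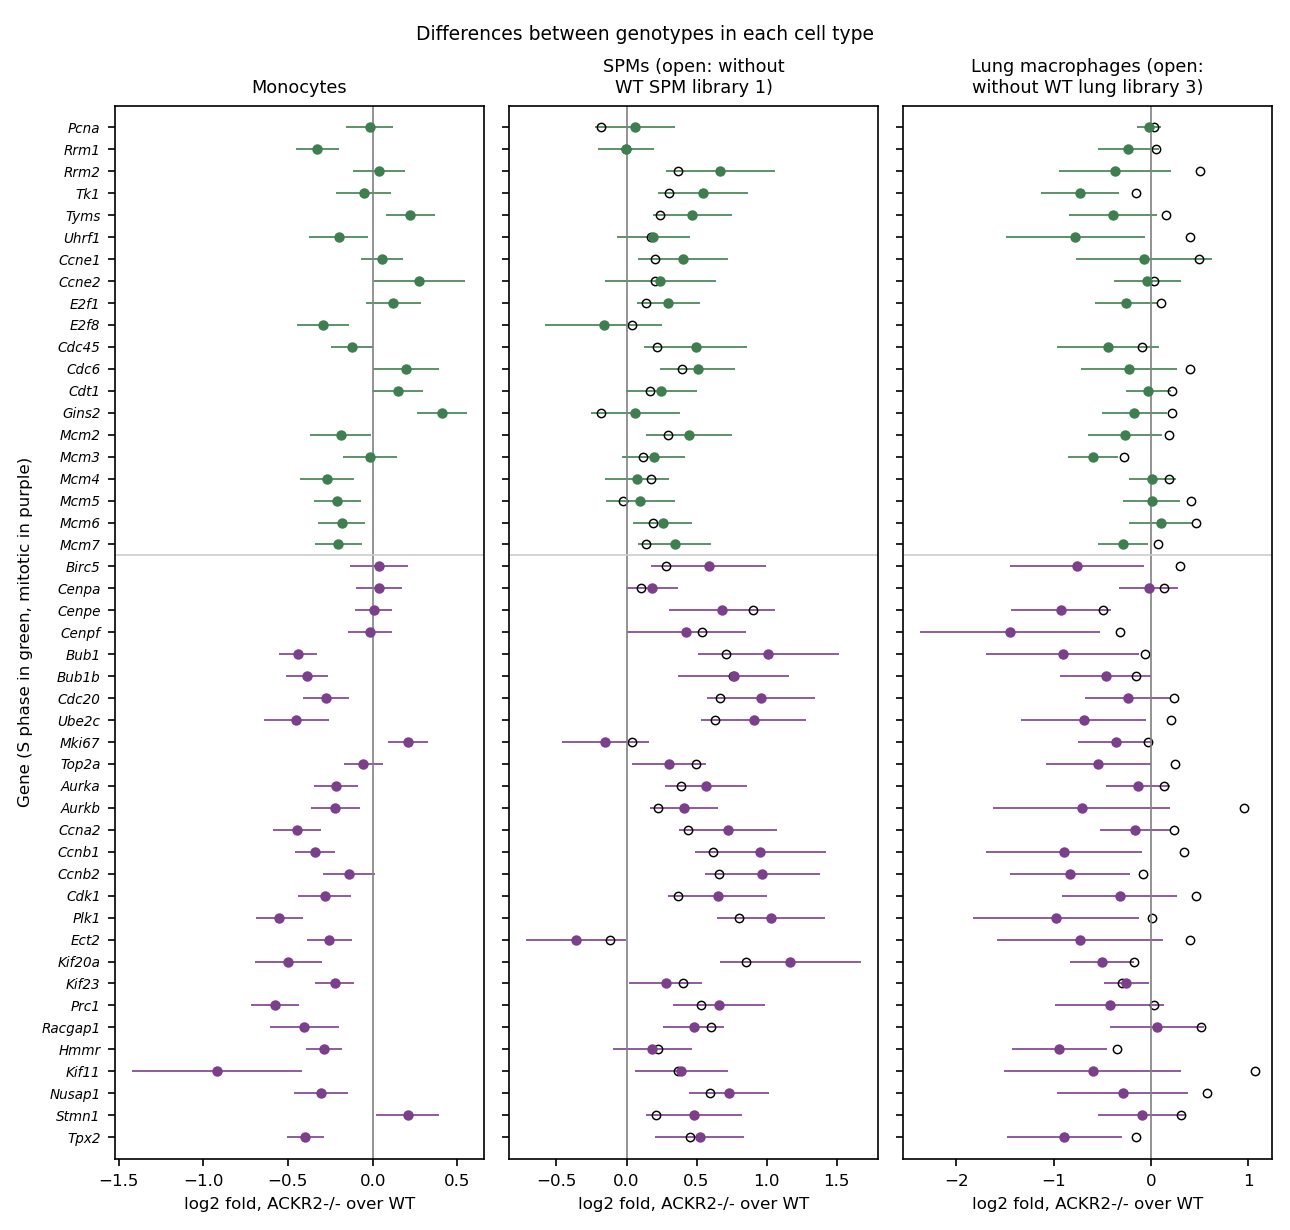
Points show the log2 fold change of ACKR2-/- over WT for each gene with its SE in monocytes, SPMs and lung macrophages, S phase in green and mitotic in purple, and open circles the values without WT SPM library 1 or WT lung library 3. Mitotic points lie mostly left of 0 in monocytes (median -0.28) and right of 0 in SPMs (median 0.59), and in the lung panel the open circles lie to the right of the filled points for most genes.

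The difference of the genotype effects between cell types was tested as an interaction in the fit of all 26 samples. No member was called between monocytes and SPMs (0.253% of all genes were), between monocytes and lung macrophages (0.152%) or between SPMs and lung macrophages (0.0393%), by edgeR or by DESeq2. In the first of these, 6 mitotic genes had an unadjusted p under 0.05 with a lower effect in monocytes than in SPMs, against 3.66% of all genes. The median over the mitotic genes was -0.98, and the smallest adjusted p was 0.3263. Between monocytes and lung macrophages 0 members had an unadjusted p under 0.05. Between SPMs and lung macrophages 13 mitotic and 2 S phase genes did, with a higher effect in SPMs, against 3.65% of all genes, and the median over the mitotic genes was 1.12. Without WT lung library 3 this count was 3 mitotic and 0 S phase genes, and without WT SPM library 1 it was 6 and 2. The shares of all genes in those fits are not given here. The genotype differences in cell cycle RNA were thus not shown to differ between the cell types.

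A wider list of 98 other cell cycle genes gave the background, of which 97 were in all tables and 96 were tested. Between WT monocytes and WT SPMs 80 were called higher in monocytes (20.1% of all genes) and 7 lower (21.8% of all genes). Between WT monocytes and WT lung macrophages 79 were called higher (24.4% of all genes) and 10 lower (39.5% of all genes). All 20 genes of the polymerases, the clamp loader and repair at the fork were called higher in monocytes than in SPMs, with a median log2 fold change of 1.74, as were all 16 of the other mitotic regulators, with a median of 4.29. Of the 6 CDK inhibitors tested 3 were called lower in monocytes than in SPMs and 2 higher.

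Ccnd1, the cyclin that answers growth signals in G1, was at 0.250 to 1.02 CPM in WT monocytes, 19.8 to 62.1 CPM in WT SPMs and 4.33 to 30.4 CPM in WT lung macrophages, with a log2 fold change of -6.34 between monocytes and SPMs. Kif2c, a kinesin that corrects attachments at the centromere, was at 59.9 to 71.6 CPM in WT monocytes and 0.278 to 1.10 CPM in WT SPMs, and Cdc25c, the phosphatase that activates CDK1, at 20.5 to 25.4 CPM and 0 to 0.618 CPM. Cdkn2b, an inhibitor of CDK4 and CDK6, was at 0 to 0.049 CPM in WT monocytes, under the limit of 3 counts, and at 1.01 to 7.397 CPM in WT lung macrophages. The kinetochore genes Ttk and Nuf2 were at 25.9 to 32.9 and 88.2 to 114 CPM in WT monocytes, and both were under 7 CPM in each WT lung library.

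Between WT SPMs and WT lung macrophages 21 of the 96 genes were called higher in SPMs and 23 lower, shares no larger than the 23.2% and 39.1% of all genes. Fen1, which trims the flaps of lagging strand DNA, differed most. Its CPM ran from 0 to 1.40 in WT SPMs, 20.7 to 31.9 in WT lung macrophages and 2.60 to 4.21 in WT monocytes. Its level was thus highest in lung macrophages and not in monocytes, though cell type and counting cannot be told apart here. E2f2 was at 0.622 to 2.93 CPM in WT SPMs, 8.24 to 22.3 CPM in WT lung macrophages and 46.9 to 54.9 CPM in WT monocytes. Cdkn1c, an inhibitor that holds cells out of the cycle, was at 0.926 to 2.20 CPM in WT SPMs and 8.403 to 23.5 CPM in WT lung macrophages. No gene of this list was called between genotypes in any cell type. In monocytes 5 had an unadjusted p under 0.05 in the higher and 12 in the lower direction, and in SPMs 8 and 0, where 8.83% and 8.17% of all genes were higher and lower in monocytes and 2.93% higher in SPMs. Of its 13 genes of the kinetochore and spindle checkpoint, 11 had a log2 fold change below 0 in monocytes and 13 above 0 in SPMs.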

How the data were processed

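RNA of FACS sorted cells was amplified with an ultra low input kit that does not keep strand, selected for poly-A and sequenced. The values are gene counts that the authors deposited as 1 table per cell type. The submitters' processing notes name HISAT2 2.0.5, featureCounts 1.5.0-p3, DESeq2 and mm10, without saying which tool made which table. The tables list 54375 (monocytes), 54863 (SPMs) and 57186 (lung) genes. The lung table also ends in 5 summary lines, which held 56.3% of its counts and entered neither library sizes nor tests. No other normalization of the counts was found.

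Samples were grouped by genotype and cell type from their titles. edgeR 4.0.16 (R 4.3.3) was used with TMM factors, filterByExpr (minimum count 10, minimum total 15), the quasi-likelihood test and Benjamini-Hochberg adjustment over all genes tested. Genotypes were compared within each cell type, and cell types and interactions in a single fit of 26 samples over the 50104 shared genes. Calls needed an adjusted p below 0.05 together with a log2 fold change larger than 0.5 in size, and interactions the adjusted p alone. Summed levels are in CPM, and mean log2 levels used a pseudocount of 1. The test was checked on data simulated from these samples with known changes. Alternatives were DESeq2 1.42.0, other size factors, filters and thresholds, a robust fit, a replicate block, single libraries left out and a pseudocount of 0.1. Replicate numbers were not treated as pairs in the main fits. Same-numbered libraries did not consistently deviate together, with correlations from -0.118 to 0.643, which cannot show whether samples were processed in pairs. Every pair of libraries differed by more than sampling noise (chi-square divided by its degrees of freedom at least 10.85). The samples are pools or sorts listed separately, and nothing states that all came from separate sorts, so p-values measure the spread between these samples.

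The 47 genes, the other lists and the tests were chosen with earlier results of these data known. Values per library are given for 16 anchor genes of the sets, for the 2 S phase and 3 mitotic genes with the smallest p in each genotype comparison and for the highest and lowest per length. Of the other 98 cell cycle genes, the 3 with the largest fold in each WT comparison are given. Gene names shown outside these rules (Kif23, Gins2 in full, and genes in lists of calls) were chosen after their values were seen. Motifs were searched in RefSeq promoters, which were matched by symbol.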

Additional observations from a re-analysis of the deposited data

Results flagged for a closer look

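Of 108 sets of libraries tested with Dixon's 95% criterion, 14 held a library far from the others, where chance alone marks about 1 in 20. In WT lung macrophages, library 3 stood above the other 4 in 12 of them. Its S phase genes summed to 588.6 CPM (others 295.8 to 353.9 CPM). Among mitotic genes it held 15.18 CPM of Top2a, 16.95 CPM of Cdk1, 15.37 CPM of Ccnb1, 6.741 CPM of Plk1 and 28.85 CPM of Birc5. Among S phase genes it held 26.85 CPM of Mcm2, 48.49 CPM of Mcm5, 23.3 CPM of Rrm2, 17.06 CPM of Tyms, 26.15 CPM of Tk1 and 5.778 CPM of Cdc6. The same library held 15830 CPM of H2-Ab1 and 1469 CPM of B cell genes, the highest of its group. It was also the highest in genes listed for lung macrophages (8569 CPM) and for large peritoneal macrophages (449 CPM). The part of any of these in its cell cycle level was not tested.

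In ACKR2-/- lung macrophages library 4 was lowest in Top2a, at 1.507 CPM, where the others held 4.312 to 4.943 CPM. In WT monocytes library 2 was highest in Plk1, at 194.5 CPM, where the others held 145.6 to 153.6 CPM.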

How the results depend on the processing

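No named gene's call reversed. The medians of the genotype difference in lung macrophages turned from -0.23 (S phase) and -0.54 (mitotic) to 0.19 and 0.14 without WT lung library 3. Calls of higher levels in monocytes ranged over 44 to 45 genes against SPMs and 46 to 47 against lung macrophages in either genotype, and in SPMs, lung macrophages and the interactions 0 of the 47 genes were called between genotypes in each. In monocytes DESeq2 called 2 genes, leaving out single libraries gave 0 to 2, and leaving out the 2 ACKR2-/- libraries lowest in progenitor genes (chosen after seeing the data) gave 9. Except for the last, the shares of all genes called in these fits are not given here. In SPMs 6 genes had an unadjusted p under 0.05, and 0 without ACKR2-/- library 1. Between WT SPMs and WT lung macrophages 15 genes were called, 12 in a fit of those groups alone, and 15 to 29 without single libraries, with 29 without WT lung library 3. In the fit of those groups alone Bub1b, Cdt1 and E2f8 lost their calls, Cdt1 also under upper quartile factors, and Ccne1 without WT SPM library 4. The mean log2 level of mitotic genes in WT monocytes exceeded that in WT SPMs by 4.23 with a pseudocount of 1 and by 4.54 with 0.1. With the replicate block, 0 genes were called between genotypes in each cell type, 45 between WT monocytes and WT SPMs, 44 in ACKR2-/- mice, 47 and 46 against lung macrophages, 17 and 27 between SPMs and lung macrophages (15 and 30 without it), and 0 in the interactions. Same-numbered libraries correlated in their deviations from group means by -0.118 to 0.307 in monocytes, -0.092 to 0.025 in SPMs and -0.078 to 0.643 in lung macrophages. Apart from fewer samples entering a fit, the cause of these changes was not tested. Depth limits E2f8 in lung macrophages, which was at 0 in 3 WT libraries.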
